A study of Mus musculus with 8 samples.

Results

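The genes described here are 51 mouse genes of the cell cycle and of DNA replication, taken from a list of gene names. They cover the licensing and copying of DNA, the supply of its building blocks, the entry into S phase, the inhibitors of the cyclin-dependent kinases, and mitosis. All 51 were found among the 46517 gene identifiers of the deposited table, and all 51 were among the 14139 genes that passed the filter for testing, which asked for 10 or more normalized counts in 4 or more libraries. They were sorted into 8 roles: DNA replication licensing and forks (12 genes), nucleotide supply (4), G1/S cyclins and E2F factors (6), CDK inhibitors (3), S/G2/M cyclins and Cdk1 (4), mitotic kinases, checkpoint and anaphase-promoting complex (8), chromosome and centromere (5), and spindle and cytokinesis (9). The first 2 roles are called replication genes below (16 genes), and the last 4 are called mitosis genes (26 genes).

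The mRNA was sequenced from osteoclast cultures of 4 Elmo1-/- mice and 4 Elmo1+/- mice, with 1 library from each mouse. The controls were thus heterozygous animals, although the titles of their libraries call them wild-type. Elmo1 encodes a cytoplasmic adaptor that acts with DOCK proteins to activate the small GTPase Rac, and the deletion was in all cells of the animal, not only in the osteoclast lineage. In both groups, femoral marrow of mice aged 6 to 8 weeks was put on petri dishes for 16 h. By the labels, the cells that stayed afloat were then grown for 7 days with GST-RANKL at 50 ng/ml, the cytokine that drives osteoclast formation, and with 10% medium conditioned by L929 cells as a source of M-CSF, a growth and survival factor for the macrophage lineage. The methods of the study place a culture with the L929 medium alone before this, after which the attached cells were replated with GST-RANKL, a step that the labels do not give. The labels number the libraries 1 to 4 within each genotype. Cultures came from 2 experiments with 2 mice per genotype in each, and the experiment of each library is not given in the sources used here.

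Cells copy their DNA in S phase and separate it in mitosis. Before S phase, the MCM helicase is loaded on the DNA with the help of Cdc6 and Cdt1, the cyclin D and cyclin E kinases release E2F factors, and E2F factors switch on replication genes. Genes of mitosis are switched on later, in G2 and M phase, and Mki67 is the usual marker of cycling cells. Osteoclasts are large cells with many nuclei that form by fusion of macrophage-like precursors. The precursors divide in M-CSF, and a mature osteoclast no longer does. In such bulk libraries, fewer dividing cells in a culture and less RNA of these genes per cell cannot be told apart.

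Values are normalized counts, which are reads on a gene divided by a size factor of the library, and differences are given on the scale of log2(normalized count + 1) with their SE. A gene is called changed where the adjusted p of limma (Benjamini-Hochberg, over all 14139 genes tested) is under 0.05. Reads on genes totalled between 20905502 in Elmo1+/- library 3 and 40846651 in Elmo1-/- library 4, and each of the 51 genes held between 173 and 16092 reads in every library, so none was near the limit of detection. Of the 51 genes, 15 share exonic bases with another annotated gene, among them Mcm7, Tk1 and Cdc20, and whether reads were counted by strand is not given in the sources used here. Elmo1 itself (ENSMUSG00000041112, chromosome 13, 20090596 to 20608353 on GRCm38) had 1528, 1423, 1769 and 1651 normalized counts in Elmo1+/- libraries 1 to 4 and 274, 287, 316 and 291 in Elmo1-/- libraries 1 to 4. Every Elmo1-/- value was below every Elmo1+/- value, with a log2 difference of -2.44 ± 0.09 (limma, adjusted p = 8.4e-06). The first principal component of all genes tested held 62.3% of the variance. On it, libraries 1 and 2 of both genotypes lay between 0.07 and 0.63, and libraries 3 and 4 of both genotypes between -0.38 and -0.30. Each result below is therefore given by genotype and by library number.

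The 51 genes took 0.299% to 0.451% of the normalized counts of a library. Per kb of exon, the CDK inhibitor Cdkn1a was the most abundant of them, with a mean of 3739 normalized counts per kb over the 8 libraries. It was followed by cyclin D1, Ccnd1 (1973 per kb), and by Pcna, the sliding clamp of the DNA polymerases (1869 per kb). Among the mitosis genes, Ccnb2 (755 per kb) and Top2a (722 per kb) had the highest levels per kb. Cyclin D2, Ccnd2, was the lowest of all (27.5 per kb). Elmo1+/- library 3, the library with the fewest reads, was the lowest of the 8 in 44 of the 51 genes, compared with 16.1% of all genes tested. The highest value was in Elmo1-/- library 1 for 18 genes, in Elmo1+/- library 2 for 16 and in Elmo1-/- library 2 for 13.

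None of the 51 genes was called changed between Elmo1-/- and Elmo1+/- osteoclast cultures, by limma, by the quasi-likelihood test of edgeR or by the Wald test of DESeq2. Over all genes tested, limma called 0.00707%, which was Elmo1 alone. The smallest adjusted p among the 51 genes was 0.999928. At an unadjusted limma p under 0.05 there was 1 of the 51 genes, Cdt1, compared with 0.941% of all genes tested. In none of the 51 genes were the 2 genotypes free of overlap, which was so for 0.941% of all genes tested. The log2 differences lay between -0.08 and 0.25, with a median of 0.05, and 36 of the 51 were between -0.1 and 0.1. Of the 51, 37 were above 0, and both this count and the median rested on single libraries. Without Elmo1+/- library 3, 15 were above 0 (median -0.09), without Elmo1-/- library 1 or 2, 22 or 23 (median -0.01 for either), and without Elmo1+/- library 2, 49 (median 0.15).

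The replication genes had a larger median genotype difference than the mitosis genes, the G1/S genes and the CDK inhibitors, and none of them was called. All 16 had a higher mean in Elmo1-/-, with a median log2 difference of 0.18, whereas 48.4% of all genes tested had a difference above 0 and the median of all genes was -0.0031. Without Elmo1+/- library 3, 11 of the 16 were above 0 (median 0.11), and without Elmo1-/- library 1, 14 were (median 0.17). Without Elmo1-/- library 2 or Elmo1+/- library 4, 15 were (median 0.098 or 0.23). Cdt1, which loads the MCM helicase on origins (ENSMUSG00000006585, chromosome 8, 122568015 to 122573554 on GRCm38), had normalized counts of 1222, 1301, 1176 and 1410.5 in Elmo1+/- libraries 1 to 4 and 1337, 1474, 1456 and 1509.9 in Elmo1-/- libraries 1 to 4. Elmo1-/- library 1 lay below Elmo1+/- library 4, so the genotypes overlapped. The log2 difference was 0.18 ± 0.08 with a 95% interval of 0.0048 to 0.35. The exact two-sided permutation p was 0.0571, where 0.0286 is the smallest that 4 against 4 libraries allow. By a ratio of group averages, a measure not used here, the study lists Cdt1 among genes regulated by Elmo1, higher in Elmo1-/-.

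The 6 subunits of the MCM helicase, Mcm2 to Mcm7, were each higher on average in Elmo1-/-, with log2 differences between 0.19 (Mcm5) and 0.25 (Mcm7) and a median of 0.21. Their median stayed above 0 whichever library was left out (0.14 to 0.27). Mcm3 (ENSMUSG00000041859) had normalized counts of 3631, 3607, 2793 and 3600.4 in Elmo1+/- libraries 1 to 4 and 4555, 4484, 3478 and 3564 in Elmo1-/- libraries 1 to 4. The Elmo1-/- libraries 1 and 2 were the 2 highest, and Elmo1+/- library 3 alone was far below the rest, while Elmo1-/- libraries 3 and 4 lay below the other 3 Elmo1+/- libraries. The log2 difference of Mcm3 was 0.24 ± 0.13 (95% interval -0.05 to 0.52). Uhrf1, which carries DNA methylation over to the new strand, had a similar size (0.24 ± 0.12). Pcna had normalized counts of 4518, 4094, 4105 and 4683 in Elmo1+/- libraries 1 to 4 and 4958, 5124, 4123 and 4284 in Elmo1-/- libraries 1 to 4. The genotypes overlapped widely in Pcna, with a log2 difference of 0.08 ± 0.09 (95% interval -0.12 to 0.29). The annotated copies Pcna-ps1 and Pcna-ps2 together had a mean of 2867 normalized counts, so how reads were split between Pcna and its copies is uncertain.

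The library numbers were also used as a block, since libraries with the same number deviated together from their genotype means. Different-numbered libraries were not compared, so this shows no pairing by number beyond the split of 1 and 2 from 3 and 4. With this block, 8 of the 51 genes had an unadjusted limma p under 0.05, all 8 of them licensing and fork genes higher in Elmo1-/- (Cdt1, Cdc6, Uhrf1, Mcm2, Mcm3, Mcm5, Mcm6 and Mcm7), compared with 2.75% of all genes tested in either direction and 1.29% higher. None of the 51 was called with the block (smallest adjusted p 0.99984). With the number set, 1 and 2 against 3 and 4, as a term, 6 of the 51 had an unadjusted p under 0.05, compared with 2.91% of all genes tested, and none was called. Within libraries 1 and 2, where 2 Elmo1-/- libraries are set against 2 Elmo1+/- libraries, the values of 19 of the 51 genes did not overlap, 16 higher and 3 lower in Elmo1-/-, compared with 26.9% of all genes tested. Within libraries 3 and 4 there were 3 such genes, all higher in Elmo1-/-, compared with 29.9% of all genes tested. The median log2 difference of the replication genes was 0.25 within libraries 1 and 2 and 0.10 within libraries 3 and 4.

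The mitosis genes had genotype differences around 0, with a median of 0.01 and 15 of 26 above 0 by limma. By edgeR and by DESeq2, 9 of 26 were above 0 (medians -0.015 and -0.014). Mki67 (ENSMUSG00000031004, chromosome 7, 135689784 to 135716361 on GRCm38), the marker of cycling cells, had normalized counts of 8203, 8511, 3234 and 4423 in Elmo1+/- libraries 1 to 4 and 8486, 6155, 4388 and 3964 in Elmo1-/- libraries 1 to 4. Libraries 1 and 2 were high and libraries 3 and 4 low in both genotypes, and the genotypes overlapped. The log2 difference was -0.03 ± 0.35, with a 95% interval of -0.84 to 0.77. For Top2a, the topoisomerase that untangles chromosomes, it was 0.12 ± 0.19, and for Ccnb1, the cyclin of mitotic entry, 0.02 ± 0.22. The sign of the mitosis genes also rested on single libraries: without Elmo1+/- library 3, 0 of 26 were above 0 (median -0.17), and without Elmo1+/- library 2, 26 of 26 were (median 0.14). The median SE of the genotype difference over the 26 genes was 0.23, and 0.10 with the number set as a term.

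The 6 G1/S genes had genotype differences between 0.04 and 0.23, and the 3 CDK inhibitors between -0.08 and -0.05, none called. Ccnd1, the cyclin that couples growth factors to G1 progression, had normalized counts of 7344, 7905, 10304 and 9859 in Elmo1+/- libraries 1 to 4 and 6679.8, 12247, 10071 and 9918 in Elmo1-/- libraries 1 to 4. Elmo1-/- library 2 was the highest and Elmo1-/- library 1 the lowest of the 8, so the spread within Elmo1-/- exceeded the difference of 0.12 ± 0.19. Cdkn1a, the p21 inhibitor that halts the cycle downstream of p53, had normalized counts of 14799, 13211, 14368 and 12056 in Elmo1+/- libraries 1 to 4 and 14416, 13402, 11763 and 12255 in Elmo1-/- libraries 1 to 4. The genotypes overlapped, with a log2 difference of -0.07 ± 0.10 (95% interval -0.29 to 0.15).

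**Figure D1:**
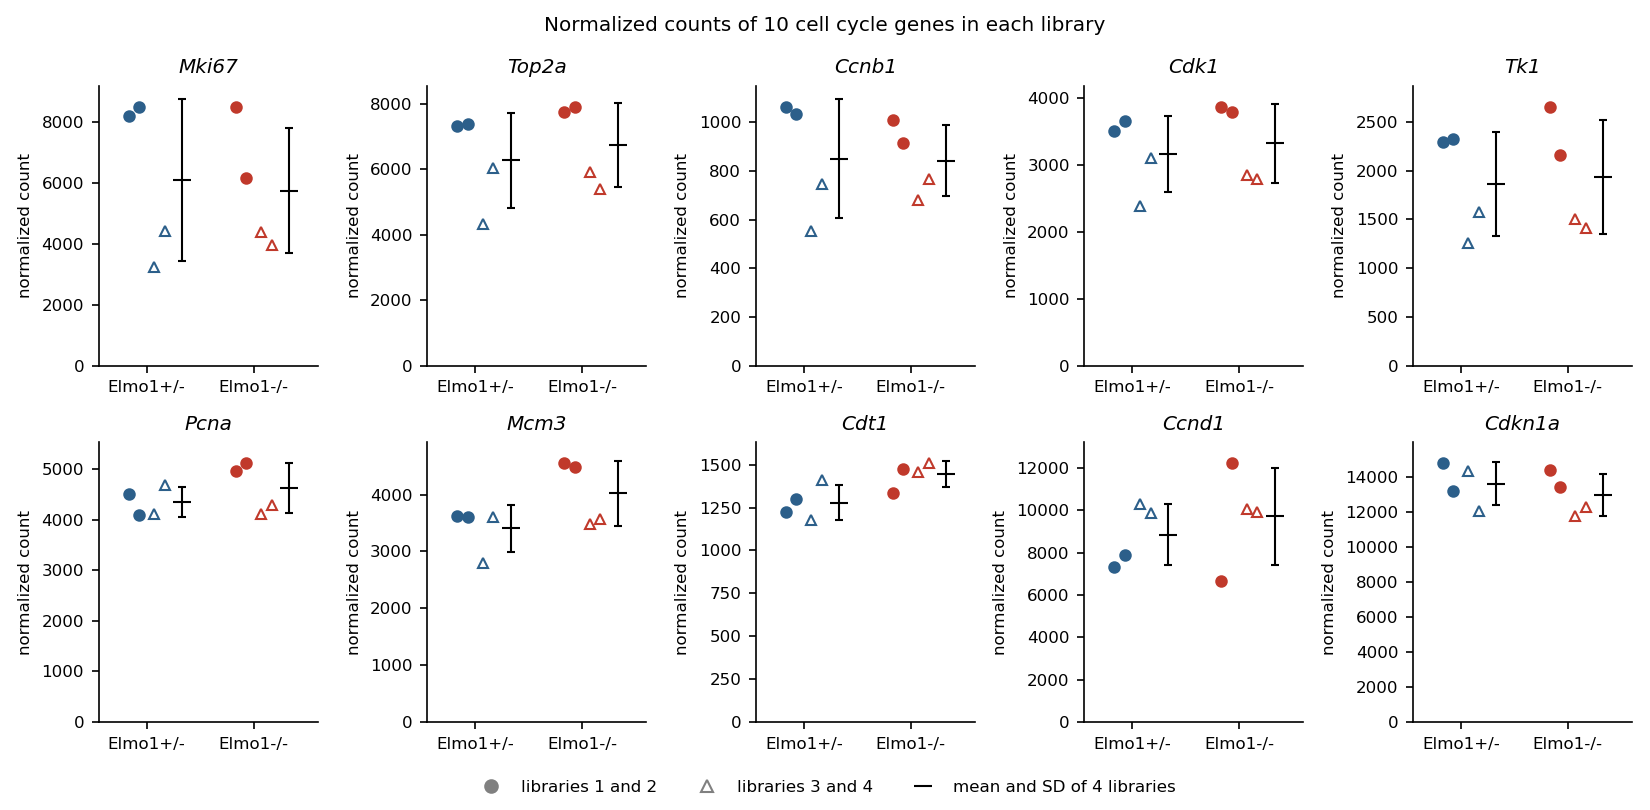
Normalized counts (vertical axes, from 0) of 10 of the 51 genes in the 4 Elmo1+/- (blue) and 4 Elmo1-/- (red) libraries. Filled circles are libraries 1 and 2, open triangles libraries 3 and 4, and the bar at the right of each group is its mean with the SD. In Mki67 the circles lie between 6155 and 8511 and the triangles between 3234 and 4423 in both genotypes, whereas the Cdt1 values differ little between circles and triangles.

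Genes of the same processes that are not among the 51 were listed as well. Of 37 other DNA replication genes, 0 were called between genotypes, and all 37 had a difference above 0 (median 0.11). Of 43 other mitosis genes, 0 were called and 28 had a difference above 0 (median 0.02), and of 24 other G1 and CDK control genes, 0 were called and 15 had a difference above 0 (median 0.03). The other DNA replication genes with a difference above 0 were 25 of 37 without Elmo1+/- library 3 (median 0.026), 29 without Elmo1-/- library 2 (median 0.063), 31 without Elmo1-/- library 1 (median 0.066), and 36 without any 1 of the others. The other mitosis genes above 0 were 4 of 43 without Elmo1+/- library 3 (median -0.14) and 40 without Elmo1+/- library 2 (median 0.12). No marker gene of the osteoclast, macrophage, myeloid progenitor, neutrophil, stromal, lymphoid or erythroid lists was called between genotypes either. The summed osteoclast markers lay between 450909 and 1173015 in Elmo1-/- and between 589401 and 1091130.0 in Elmo1+/-.

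The library numbers parted the 51 genes far more than the genotype did. In libraries 3 and 4, 35 of the 51 genes were called lower than in libraries 1 and 2 with genotype as a term, and 0 were called higher. Over all genes tested, 32.6% were called, 15.6% lower and 17% higher. In 34 of the 51 genes, the 4 values of libraries 3 and 4 lay all below the 4 values of libraries 1 and 2, compared with 15.8% of all genes tested (34% in either direction). Of the 51 genes, 20 had a log2 difference below -0.5, compared with 7.25% of all genes tested. The median log2 difference of the 51 genes was -0.43, and that of all genes tested was -0.0072. The numbers are not a condition of the study, and their use here was chosen because earlier results of these data had shown that they part the libraries, so the calls describe these 8 libraries and are no test of a condition. Without Elmo1+/- library 3, the shallowest, 30 were called lower. Of the 35, 30 were called also under every other scaling, filter, pseudocount and tool tried and whichever library was left out. The share of all genes called was not counted in these other fits.

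**Figure D2:**
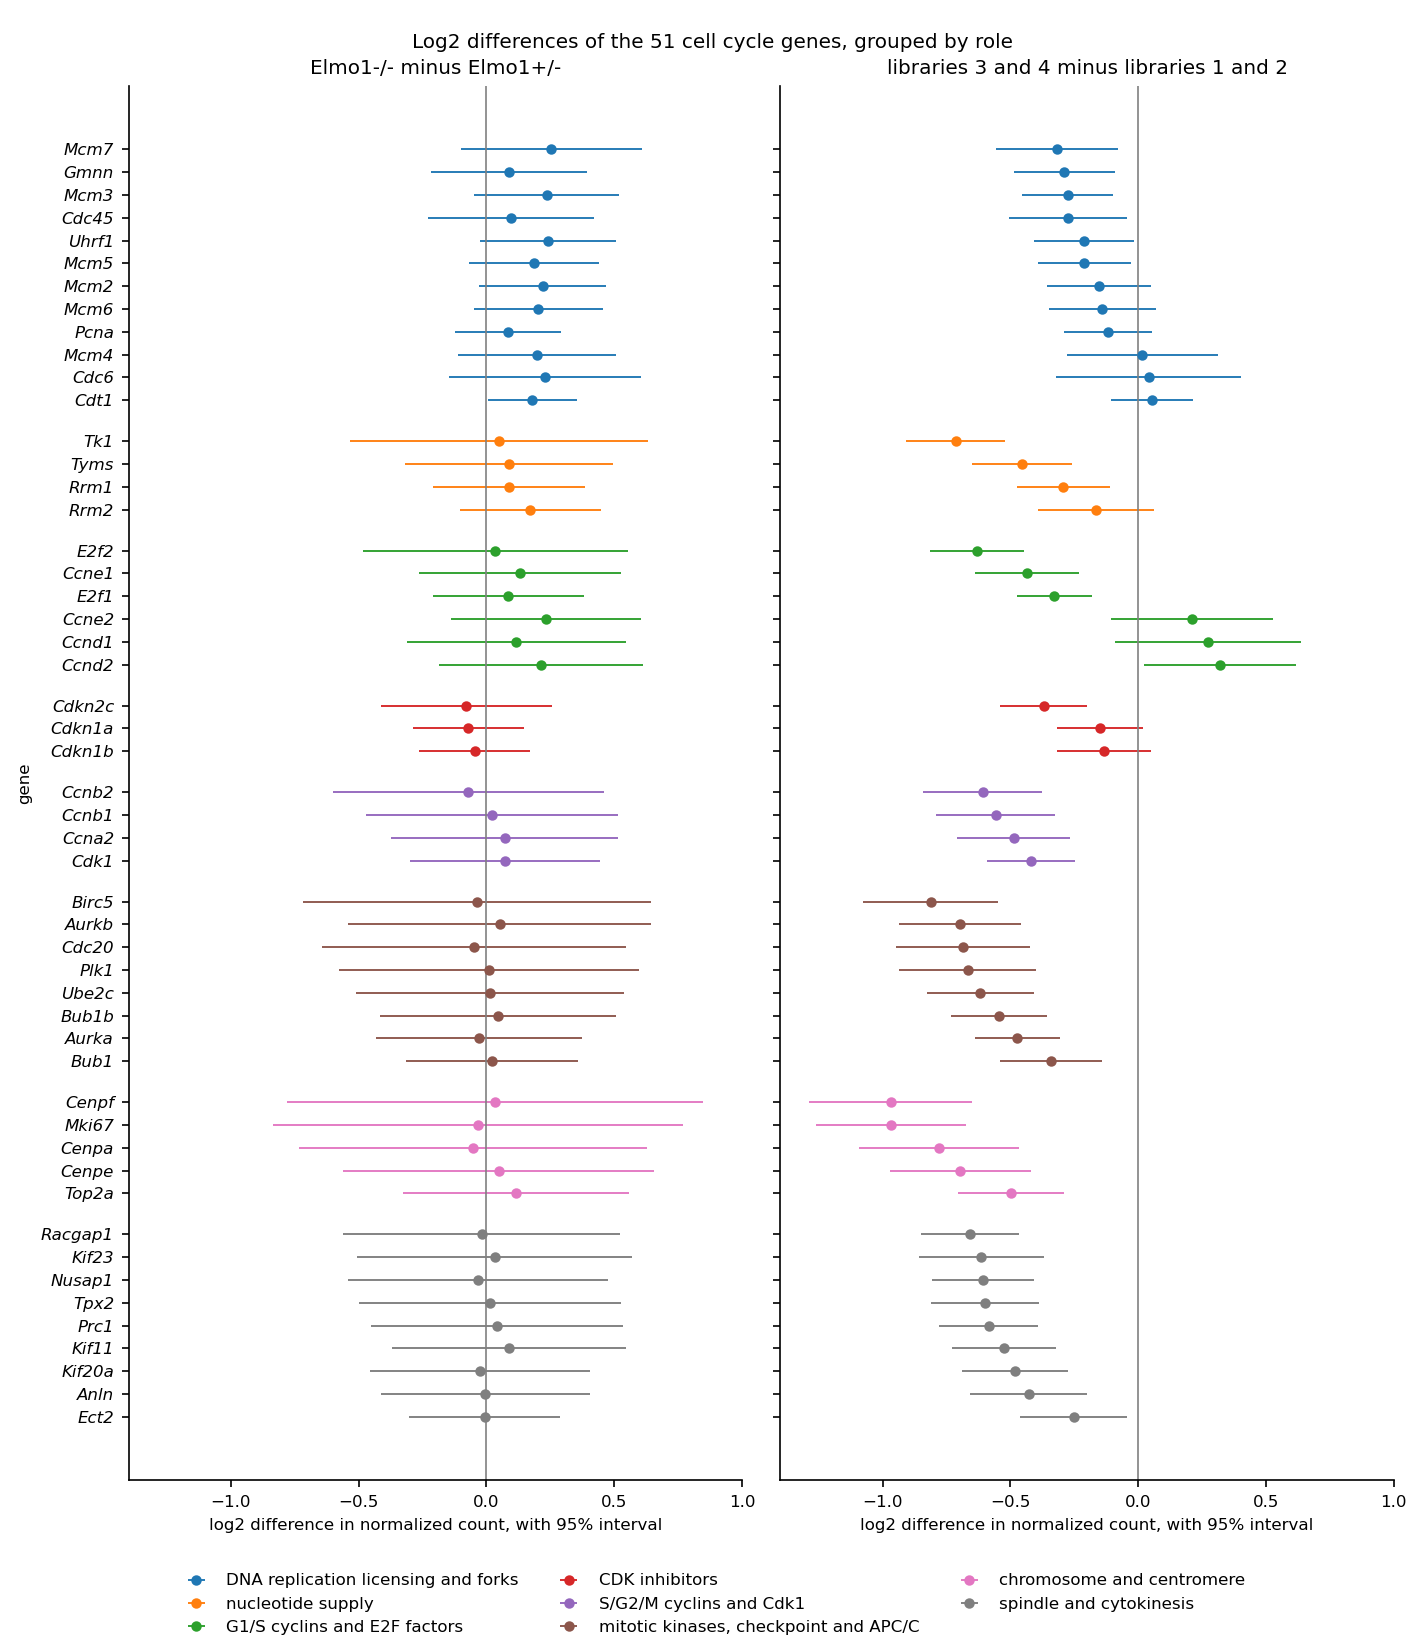
Log2 difference (horizontal axes) of each of the 51 genes (rows, grouped and coloured by role) between genotypes (left) and between library numbers (right), with 95% intervals of limma. On the left the points lie between -0.08 and 0.25, and only the interval of Cdt1 leaves out 0. On the right the 26 mitosis genes lie between -0.97 and -0.25, left of most replication genes.

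All 26 mitosis genes had a difference below 0, with a median log2 difference of -0.60. Of them, 25 were called lower in libraries 3 and 4, compared with 15.6% of all genes tested. The gene not called was Ect2, whose product is needed to divide the cell body (-0.25 ± 0.09, limma, adjusted p = 0.0619). The largest differences were those of chromosome and centromere genes. Mki67 had a mean of 7839 ± 1131 normalized counts (SD, n = 4) in libraries 1 and 2 and 4002 ± 553 in libraries 3 and 4, which was 1.96-fold higher in libraries 1 and 2 (log2 -0.97 ± 0.13). Cenpf, a kinetochore protein, had normalized counts of 660.3 and 888 in Elmo1+/- libraries 1 and 2 and 770.1 and 676 in Elmo1-/- libraries 1 and 2, against 298 and 433 in Elmo1+/- libraries 3 and 4 and 448 and 357 in Elmo1-/- libraries 3 and 4. The lowest value of libraries 1 and 2 was above the highest of libraries 3 and 4, with a log2 difference of -0.97 ± 0.14. Top2a, the most abundant of this role per kb, had 7315 and 7393 in Elmo1+/- libraries 1 and 2 and 7738 and 7913 in Elmo1-/- libraries 1 and 2, against 4323 and 6046 in Elmo1+/- libraries 3 and 4 and 5903 and 5411 in Elmo1-/- libraries 3 and 4. The sets did not overlap, and the log2 difference was -0.50 ± 0.09. Cenpa, the histone variant that marks centromeres, and Cenpe, a kinetochore motor, differed by -0.78 ± 0.14 and -0.70 ± 0.12.

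All 8 mitotic kinase, checkpoint and anaphase-promoting complex genes were lower in libraries 3 and 4, between -0.81 and -0.34. Birc5 (survivin) and Aurkb (Aurora B) act together in the complex that corrects chromosome attachment. Birc5 had normalized counts of 2150.2 and 2256 in Elmo1+/- libraries 1 and 2 and 2469 and 1761 in Elmo1-/- libraries 1 and 2, against 1067 and 1390.5 in Elmo1+/- libraries 3 and 4 and 1332 and 1121 in Elmo1-/- libraries 3 and 4. Those of Aurkb were 1494 and 1424 in Elmo1+/- libraries 1 and 2 and 1572 and 1442 in Elmo1-/- libraries 1 and 2, against 732 and 1094 in Elmo1+/- libraries 3 and 4 and 906 and 958 in Elmo1-/- libraries 3 and 4. Both genes kept the sets apart in both genotypes, with log2 differences of -0.81 ± 0.12 and -0.70 ± 0.11. Ube2c, the ubiquitin-conjugating enzyme of the anaphase-promoting complex and the highest of this role per kb, had 1779 and 1856 in Elmo1+/- libraries 1 and 2 and 1913 and 1559 in Elmo1-/- libraries 1 and 2, against 982 and 1264 in Elmo1+/- libraries 3 and 4 and 1228 and 1164 in Elmo1-/- libraries 3 and 4. Its sets did not overlap (-0.62 ± 0.09). The activator of that complex, Cdc20, differed by -0.69 ± 0.12, the kinases Plk1 and Aurka by -0.67 ± 0.12 and -0.47 ± 0.08, and the checkpoint genes Bub1b and Bub1 by -0.55 ± 0.08 and -0.34 ± 0.09.

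The 4 S/G2/M cyclins and Cdk1, the kinase that drives mitosis, were all lower in libraries 3 and 4. Ccnb1 had normalized counts of 1063 and 1035 in Elmo1+/- libraries 1 and 2 and 1007 and 914 in Elmo1-/- libraries 1 and 2, against 553 and 745 in Elmo1+/- libraries 3 and 4 and 682 and 767 in Elmo1-/- libraries 3 and 4. Ccnb2 had 1399 and 1555 in Elmo1+/- libraries 1 and 2 and 1458 and 1173 in Elmo1-/- libraries 1 and 2, against 778 and 1041 in Elmo1+/- libraries 3 and 4 and 919.8 and 921 in Elmo1-/- libraries 3 and 4, and Cdk1 had 3515 and 3655 in Elmo1+/- libraries 1 and 2 and 3876 and 3791 in Elmo1-/- libraries 1 and 2, against 2388 and 3101 in Elmo1+/- libraries 3 and 4 and 2849 and 2791 in Elmo1-/- libraries 3 and 4. In these 3 genes the sets did not overlap, and Elmo1+/- library 3 was the lowest of the 8. The log2 differences were -0.56 ± 0.10 for Ccnb1, -0.61 ± 0.11 for Ccnb2, -0.49 ± 0.10 for Ccna2 (cyclin A2, of S and G2 phase) and -0.42 ± 0.08 for Cdk1. The annotated copy Ccnb1-ps had a mean of 352 normalized counts beside 846 for Ccnb1.

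Of the 9 spindle and cytokinesis genes, 8 were called lower in libraries 3 and 4, between -0.66 and -0.43. Racgap1 and Kif23 form the complex at the middle of the spindle that places the cleavage furrow. Normalized counts of Racgap1 were 2882 and 3115 in Elmo1+/- libraries 1 and 2 and 3233 and 2635 in Elmo1-/- libraries 1 and 2, against 1689 and 2079 in Elmo1+/- libraries 3 and 4 and 1948 and 1808 in Elmo1-/- libraries 3 and 4. For Kif23 they were 1231 and 1301 in Elmo1+/- libraries 1 and 2 and 1209 and 1244 in Elmo1-/- libraries 1 and 2, against 641 and 957 in Elmo1+/- libraries 3 and 4 and 869.8 and 822 in Elmo1-/- libraries 3 and 4. Tpx2, a spindle assembly factor and the highest of this role per kb, had 2679 and 2765 in Elmo1+/- libraries 1 and 2 and 2868 and 2416 in Elmo1-/- libraries 1 and 2, against 1477 and 2003 in Elmo1+/- libraries 3 and 4 and 1810.5 and 1816 in Elmo1-/- libraries 3 and 4. None of the 3 genes overlapped between the sets, and their log2 differences were -0.66 ± 0.09, -0.61 ± 0.11 and -0.60 ± 0.10. The microtubule proteins Nusap1 and Prc1 (-0.61 ± 0.09 and -0.59 ± 0.09), the motors Kif11 and Kif20a (-0.53 ± 0.09 and -0.48 ± 0.09) and the furrow scaffold Anln (-0.43 ± 0.10) completed the role.

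The replication genes had smaller differences. Of the 16, 6 were called lower in libraries 3 and 4 and 0 higher, compared with 15.6% and 17% of all genes tested. The median log2 difference was -0.21. The 3 called nucleotide genes were those of thymidine kinase, Tk1, thymidylate synthase, Tyms, and the large subunit of ribonucleotide reductase, Rrm1. Tk1 had normalized counts of 2294 and 2328 in Elmo1+/- libraries 1 and 2 and 2655 and 2159 in Elmo1-/- libraries 1 and 2, against 1258 and 1579 in Elmo1+/- libraries 3 and 4 and 1500.0 and 1415 in Elmo1-/- libraries 3 and 4. Tyms had 980.4 and 988 in Elmo1+/- libraries 1 and 2 and 1143 and 1111 in Elmo1-/- libraries 1 and 2, against 675 and 885 in Elmo1+/- libraries 3 and 4 and 766 and 761 in Elmo1-/- libraries 3 and 4. The sets did not overlap in either gene, with log2 differences of -0.71 ± 0.09 and -0.45 ± 0.09, and Rrm1 differed by -0.29 ± 0.08. Rrm2, the small subunit of the reductase and the most abundant of this role per kb, had 3005 and 2850.4 in Elmo1+/- libraries 1 and 2 and 3035 and 3777 in Elmo1-/- libraries 1 and 2, against 2292 and 3130.3 in Elmo1+/- libraries 3 and 4 and 3045 and 2836 in Elmo1-/- libraries 3 and 4. Its sets overlapped, with -0.17 ± 0.10 (adjusted p = 0.228).

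Of the 12 licensing and fork genes, 3 were called lower, compared with 15.6% of all genes tested. This number was 0 after scaling to equal totals and lay between 0 and 8 when 1 library was left out. The 3 called were Mcm7, Gmnn, the geminin gene whose product inhibits Cdt1, and Mcm3, with log2 differences of -0.32 ± 0.11, -0.29 ± 0.09 and -0.28 ± 0.08. Gmnn had normalized counts of 1531 and 1656 in Elmo1+/- libraries 1 and 2 and 1710.4 and 1596 in Elmo1-/- libraries 1 and 2, against 1101 and 1466 in Elmo1+/- libraries 3 and 4 and 1454 and 1322 in Elmo1-/- libraries 3 and 4. Those of Mcm7 were 2151 and 2129 in Elmo1+/- libraries 1 and 2 and 2766 and 2729.8 in Elmo1-/- libraries 1 and 2, against 1517 and 2251 in Elmo1+/- libraries 3 and 4 and 2024 and 2069 in Elmo1-/- libraries 3 and 4. In Mcm7 the sets overlapped, since Elmo1+/- library 4 lay above Elmo1+/- libraries 1 and 2, and in Gmnn they did not. The other 9 had differences between -0.27 (Cdc45, a partner of MCM in the active helicase) and 0.05 (Cdt1). For Pcna the difference was -0.12 ± 0.08, for Mcm4 0.02 ± 0.13 and for Cdc6 0.04 ± 0.16, none called. The number of replication genes called lower lay between 2 and 11 when 1 library was left out. It was 2 without Elmo1-/- library 3 or 4 or Elmo1+/- library 2 or 3, 3 without Elmo1+/- library 1, and 11 without Elmo1+/- library 4. After scaling to equal totals it was 2, whereas that of the mitosis genes lay between 24 and 26 in all these fits. The share of all genes called lower was not counted in the fits with equal totals or with a library left out.

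The G1/S genes went in both directions. Of the 6, 3 were called lower in libraries 3 and 4, compared with 15.6% of all genes tested. These were the transcription factors E2f2 and E2f1 and cyclin E1, Ccne1. E2f2 had normalized counts of 1249.8 and 1255 in Elmo1+/- libraries 1 and 2 and 1327 and 1087 in Elmo1-/- libraries 1 and 2, against 705 and 812 in Elmo1+/- libraries 3 and 4 and 845 and 813 in Elmo1-/- libraries 3 and 4. Ccne1 had 1004 and 988 in Elmo1+/- libraries 1 and 2 and 1166 and 1076 in Elmo1-/- libraries 1 and 2, against 655 and 873 in Elmo1+/- libraries 3 and 4 and 856 and 762 in Elmo1-/- libraries 3 and 4. The sets did not overlap in either gene, with differences of -0.63 ± 0.08 and -0.43 ± 0.09, and E2f1 differed by -0.33 ± 0.07. Ccnd1, Ccnd2 and Ccne2 (cyclins D1, D2 and E2) had values above 0, at 0.27 ± 0.16, 0.32 ± 0.13 and 0.21 ± 0.14, and none passed the test with all 8 libraries (adjusted p = 0.216, 0.088 and 0.276). In Ccnd1, Elmo1-/- library 2 was the highest of all although it belongs to libraries 1 and 2. Without that library all 3 cyclin genes were called higher in libraries 3 and 4, a fit in which the share of all genes called was not counted. Normalized counts of Ccnd2 were 219.8 and 171 in Elmo1+/- libraries 1 and 2 and 268 and 268 in Elmo1-/- libraries 1 and 2, against 321 and 259.8 in Elmo1+/- libraries 3 and 4 and 269 and 294 in Elmo1-/- libraries 3 and 4. The 2 lowest were Elmo1+/- libraries 1 and 2, and the Elmo1-/- libraries differed little.

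Of the 3 CDK inhibitors, 1 was called lower in libraries 3 and 4, compared with 15.6% of all genes tested. This was Cdkn2c (p18, an inhibitor of the cyclin D kinases). Its normalized counts were 939 and 953 in Elmo1+/- libraries 1 and 2 and 894 and 824 in Elmo1-/- libraries 1 and 2, against 633 and 776 in Elmo1+/- libraries 3 and 4 and 685 and 701 in Elmo1-/- libraries 3 and 4. The sets did not overlap, and the difference was -0.37 ± 0.08. Cdkn1b (p27, an inhibitor of the cyclin E kinase) had 635 and 657 in Elmo1+/- libraries 1 and 2 and 538 and 587 in Elmo1-/- libraries 1 and 2, against 545 and 513 in Elmo1+/- libraries 3 and 4 and 553 and 589 in Elmo1-/- libraries 3 and 4. The sets overlapped, with -0.13 ± 0.08 (adjusted p = 0.232), and for Cdkn1a the difference was -0.15 ± 0.08 (adjusted p = 0.148).

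**Figure D3:**
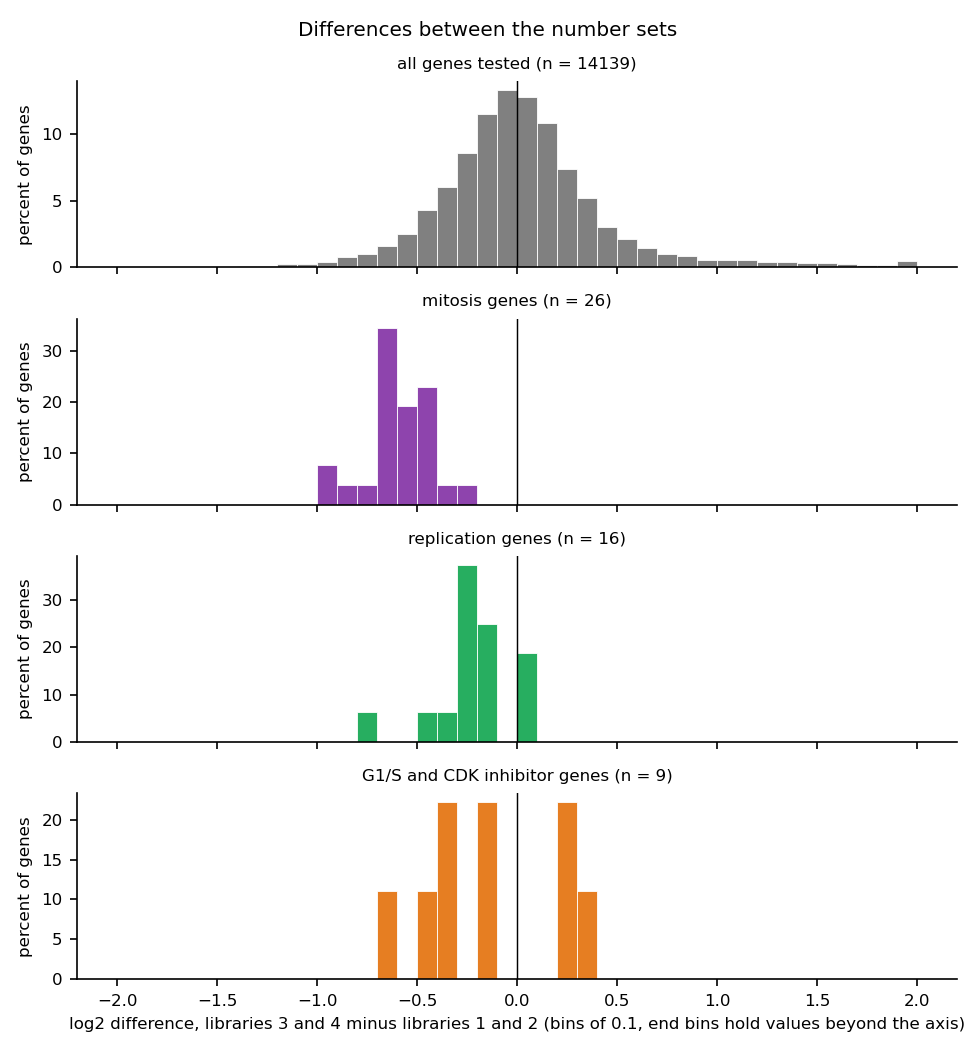
Share of genes (vertical axes, percent) in bins of the log2 difference between libraries 3 and 4 and libraries 1 and 2 (horizontal axis), for all 14139 genes tested, the 26 mitosis genes, the 16 replication genes, and the 9 G1/S and CDK inhibitor genes. All genes centre near 0 with a median of -0.0072, the mitosis genes centre at -0.60 with none above 0, and the replication genes at -0.21.

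Summed over the 26 mitosis genes, normalized counts were 55738 and 58973 in Elmo1+/- libraries 1 and 2, 31004 and 41892 in Elmo1+/- libraries 3 and 4, 58593 and 53301 in Elmo1-/- libraries 1 and 2, and 39039 and 37368 in Elmo1-/- libraries 3 and 4. The sets did not overlap in either genotype. Summed over the 16 replication genes, they were 42806, 43187, 34468 and 44630 in Elmo1+/- libraries 1 to 4 and 49334, 52772, 41307 and 41602 in Elmo1-/- libraries 1 to 4. These overlapped, since Elmo1+/- library 4 was above Elmo1+/- libraries 1 and 2. The ratio of the mitosis sum to the replication sum was 1.30 and 1.37 in Elmo1+/- libraries 1 and 2, 0.899 and 0.939 in Elmo1+/- libraries 3 and 4, 1.19 and 1.01 in Elmo1-/- libraries 1 and 2, and 0.945 and 0.898 in Elmo1-/- libraries 3 and 4. The ratio was above 1 in all 4 libraries numbered 1 and 2 and below 1 in all 4 numbered 3 and 4.

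The promoters of these groups were searched for 3 motifs, since the medians of the mitosis and the replication genes between the sets were -0.60 and -0.21, a difference that was not tested. RefSeq promoters of GRCm38.p6, from 250 bases before to 50 after the start of a gene, were found for 42 of the 51 genes. Named only are Mcm4, Gmnn, Ccne2, Ccnd1, Ccnd2, Ccna2, Aurkb, Kif20a and Tpx2. For 7 of the 51 genes there were 2 promoters, and a motif counted for a gene where any of its promoters held it. E2F motifs (TTTCCCGC, TTTGGCGC, TTTGCCGC or TTTCGCGC, on either strand) were in 7 of the 10 licensing and fork promoters and in 1 of the 22 mitosis promoters, compared with 2.6% of all 27025 genes with a promoter and 4.67% of the 9974 of these that were tested. The CHR motif (cell cycle genes homology region, TTTGAA or TTCGAA on either strand) was in 18 of the 22 mitosis promoters and in 3 of the 10 licensing and fork promoters, compared with 21.7% of all and 16.7% of those tested. CCAAT, on either strand, was in 19 of the 22 and 8 of the 10, compared with 41.1% and 42.7%. Matches of the E2F letters on opposite strands can overlap each other. As background, E2F factors bind motifs of this kind, and CHR and CCAAT motifs are known from promoters of G2 and M genes. A match describes letters and is no evidence of binding in these cells.

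The windows shown are those of 3 mitosis genes, with the CHR and CCAAT letters in capitals, and of 3 licensing genes, with the E2F letters in capitals. These 6 were picked as examples after the motifs had been seen. They run from 5′ to 3′ on the strand of the gene and end before its start. The windows of Cdk1 (chr10:69352913-69353007, minus strand, bases -95 to -1 from the start), Top2a (chr11:99024200-99024299, minus strand, -110 to -11), Ube2c (chr2:164769829-164769918, plus strand, -100 to -11), Mcm5 (chr8:75109339-75109438, plus strand, -170 to -71), Mcm6 (chr1:128359736-128359825, minus strand, -120 to -31) and Cdc6 (chr11:98907991-98908060, plus strand, -160 to -91) follow.
Cdk1: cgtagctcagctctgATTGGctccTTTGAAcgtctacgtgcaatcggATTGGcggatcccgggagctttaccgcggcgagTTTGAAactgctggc
Top2a: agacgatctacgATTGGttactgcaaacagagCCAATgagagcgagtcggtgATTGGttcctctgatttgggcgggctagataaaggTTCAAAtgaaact
Ube2c: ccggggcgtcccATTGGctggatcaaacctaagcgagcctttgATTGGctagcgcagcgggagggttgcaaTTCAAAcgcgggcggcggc
Mcm5: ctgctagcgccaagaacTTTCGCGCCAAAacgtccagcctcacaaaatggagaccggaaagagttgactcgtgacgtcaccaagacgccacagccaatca
Mcm6: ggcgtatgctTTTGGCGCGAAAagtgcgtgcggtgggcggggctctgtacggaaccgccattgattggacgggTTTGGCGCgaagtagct
Cdc6: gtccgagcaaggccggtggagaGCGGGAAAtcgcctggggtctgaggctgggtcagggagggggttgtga

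Each of the 3 mitosis windows holds 2 or more CCAAT motifs upstream of a CHR motif, and the 3 genes differed between the sets by -0.42, -0.50 and -0.62. Within the windows, the CHR letters of Cdk1 start 71 and 15 bases before the gene start, those of Top2a 23 and those of Ube2c 29 bases before it. Cdk1 is also the 1 mitosis gene with an E2F motif, which starts 131 bases before its start and so lies outside the window shown. Mcm5 and Mcm6 each hold a pair of overlapping E2F motifs on opposite strands, which start 153 and 149 bases (Mcm5) and 110 and 106 bases (Mcm6) before the start, and Mcm6 has another at 47 bases. Between the sets Mcm5, Mcm6 and Cdc6 differed by -0.21, -0.14 and 0.04, none called. The motifs did not part the called genes from the others without exceptions, and a link between motifs and calls was not tested. Mcm3 and Mcm7, which were called lower, hold E2F motifs too. E2f2, also called lower, holds all 3 kinds across its 2 promoters, with E2F and CHR in different ones. Among the mitosis genes called lower, Ccnb1, Birc5, Cenpe and Nusap1 have no CHR motif, and Birc5, Nusap1 and Anln have no CCAAT.

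The other cell cycle lists are given beside the 51 genes. Of the 43 other mitosis genes, 39 were called lower in libraries 3 and 4 and 0 higher, with a median of -0.53. The largest difference was that of Cdc25b, a phosphatase that activates Cdk1 (-0.998 ± 0.13), followed by the spindle genes Aspm (-0.86 ± 0.13) and Hmmr (-0.83 ± 0.11). Of the 37 other DNA replication genes, 15 were called lower and 1 higher, with a median of -0.20. The catalytic subunit of DNA polymerase epsilon, Pole, differed by -0.57 ± 0.11, and the 1 higher gene was Orc2, a subunit of the origin recognition complex (0.29 ± 0.08). Of the 24 other G1 and CDK control genes, 4 were called lower and 2 higher, with a median of -0.05. Of all genes tested, 15.6% were called lower and 17% higher. The counts of the 24 other G1 and CDK control genes do not stand above this background. The lower ones were the inhibitors Cdkn2d (-0.88 ± 0.18) and Cdkn2a (-0.56 ± 0.15), the cyclin gene Ccnd3 (-0.47 ± 0.07) and Fzr1 (-0.30 ± 0.07), which activates the anaphase-promoting complex in late mitosis and G1. The higher ones were Cdkn1c, the p57 inhibitor (1.47 ± 0.23), and E2f3 (0.22 ± 0.08).

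Markers of some cell types, but not of all, moved with the same library numbers. Over all genes tested, 15.6% were called lower in libraries 3 and 4 and 17% higher. All 10 osteoclast markers were called higher in libraries 3 and 4, with a median log2 difference of 1.17. Their summed normalized counts were 450909 to 692445 in libraries 1 and 2 and 1029113 to 1173015 in libraries 3 and 4. Of the 10 macrophage and monocyte markers, 4 were called lower in libraries 3 and 4 (Mertk, Cd14, Lyz2 and Mrc1), with summed counts of 1545908 to 1924577 in libraries 1 and 2 and 1166094 to 1266740.0 in libraries 3 and 4. Of 8 neutrophil markers, 1 was called, S100a8, lower, with sums of 17087 to 28929 and 15193 to 17333. The myeloid progenitor markers (7 of 10 tested, 0 called) summed to 205 to 364 and to 140 to 717, and the stromal markers (6 of 10 tested, 0 called) to 1473 to 1743 and to 1051 to 1856. Of the 8 lymphoid markers, 7 were under 10 in every library, with Cd3g and Ncr1 at 0, and the only gene tested, Cd79b, was called lower (sums of 241 to 417 and 160.3 to 218). Of the 8 erythroid and megakaryocyte markers, 7 were under 10 in every library, with Hbb-bs at 0, and Pf4, which macrophages also express, was not called (sums of 20389 to 27377 and 23600.3 to 27287). The part of these cells in the results for the 51 genes was not tested.

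**Figure D4:**
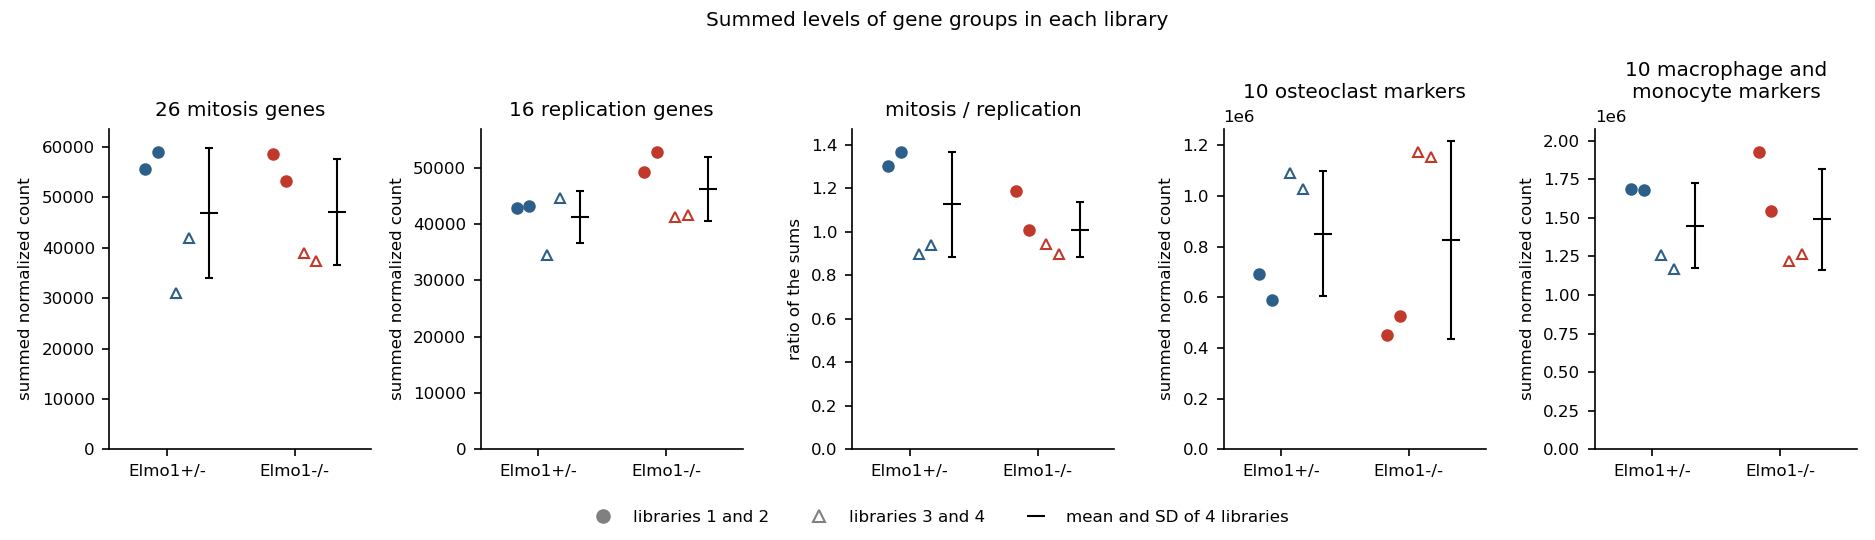
Summed normalized counts (vertical axes, from 0) of the 26 mitosis genes, the 16 replication genes, 10 osteoclast markers and 10 macrophage and monocyte markers, and the ratio of the mitosis to the replication sum, in the 4 Elmo1+/- (blue) and 4 Elmo1-/- (red) libraries. Filled circles are libraries 1 and 2, open triangles libraries 3 and 4, and bars give the mean and SD of a genotype. The mitosis sums lie between 53301 and 58973 in the circles and between 31004 and 41892 in the triangles, and the osteoclast markers are in the opposite order.

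Within each genotype, fewer genes were called, all of them lower in libraries 3 and 4. Both differences came from the same fit of all 8 libraries, so the spread was pooled over the genotypes. In Elmo1+/-, 19 of the 51 genes were called, compared with 6.23% of all genes tested in either direction and 2.66% lower. In Elmo1-/-, 14 were called, compared with 8.64% in either direction and 2.19% lower. The median log2 difference of the 26 mitosis genes was -0.67 in Elmo1+/- and -0.53 in Elmo1-/-. That of the 16 replication genes was -0.13 in Elmo1+/- and -0.29 in Elmo1-/-. The difference between these differences, the genotype by number set term, was called for 0 of the 51 genes by limma, edgeR and DESeq2, compared with 0% of all genes tested by limma. At an unadjusted p under 0.05 there were also 0, compared with 2.67% of all genes tested. The smallest unadjusted limma p was 0.0547 (Cdkn1b, 0.31 ± 0.14), from 2 libraries in each of the 4 cells of the design.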

How the data were processed

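Libraries of mRNA were made by the authors on an Illumina TruSeq platform and read from both ends at 75 bp. FastQC, STAR, featureCounts and DESeq2 stand in the submitters' processing notes without versions. Genome build and gene models: not given in the sources used here. Each deposited value is a signal, namely the reads that the authors counted on a gene, divided by the DESeq2 size factor of the library. The authors' own test columns in the same table (fold change, p-value and the like) were not used. Dividing by the step of each library gave whole reads in 100% of cells (tolerance 0.01 reads). Gene symbols are those of GENCODE mouse release 21, which held 46005 of the 46517 identifiers. Chi-square values per gene between replicates lay between 8.00 and 173, so no library was a copy of another.

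The main test was limma 3.58.1 (trend and robust, R 4.3.3) on log2(normalized count + 1), for genes with 10 or more in 4 or more libraries, with Benjamini-Hochberg adjustment over 14139 genes and a threshold of 0.05. Single genes also had exact two-sided permutation tests over 70 arrangements. Alternatives were edgeR 4.0.16, DESeq2 1.42.0, TMM, equal totals, no filter, 50 as the minimum, 0.5 and 8 as pseudocounts, the omission of each library, the library number as a block, and the number set as a term. Deviations from the genotype means correlated across genes at 0.156 to 0.703 between same-numbered libraries. As every pair was over 0.1, the library number was used as a block. Libraries with different numbers were not compared, so these correlations show no pairing by number beyond the split into the number sets. The choice of this block rests on the data alone, since no label explains the numbers. The genotype and number set fits of limma, edgeR and DESeq2 were run on simulated data first. The interaction, the differences within a genotype, the block and the number set term were not run on them. Nothing says more of the cultures than 1 mouse per library, so p-values measure the spread between these libraries. Values by library are given for 10 genes set by name, for the highest gene per kb and the 2 largest set differences of each role, and for genes with an unadjusted genotype p under 0.05. Those of Mcm3 are given as well, although it meets none of these rules. The 51 genes, the other lists and the comparison by number were chosen with earlier results of these data known.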

Additional observations from a re-analysis of the deposited data

Results flagged for a closer look

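Within each genotype, the highest and the lowest of the 4 libraries were compared with the others for each of the 51 genes, 102 groups in all. A library was singled out where its gap to the nearest other library took up more of the whole range of the 4 than Dixon's 95% critical value. Chance singles out about 1 in 20 groups, here about 5.1, and 3 were found. Mcm3 was low in Elmo1+/- library 3, with 2793 normalized counts against 3600.4 to 3631 in the other 3 libraries and a gap of 0.964 of the range. Mcm7, another subunit of the same helicase, was low in the same library, with 1517 against 2129 to 2251 and a gap of 0.834. This library had the fewest reads of the 8. Ccnd2 was high in Elmo1-/- library 4, with 294 against 268 to 269 and a gap of 0.960.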

How the results depend on the processing

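The count of 0 of the 51 genes called between genotypes was 0 under all 18 alternatives, among them edgeR, DESeq2 and the library number as a replicate block. The block, with 0 of the 51 called, changed no call among them, while the genes at an unadjusted p under 0.05 went from 1 to 8. Over all genes, 1 was called between genotypes, 2 by DESeq2, and 1 to 2 when 1 library was left out (2 without Elmo1+/- library 2). The count of genes whose genotypes did not overlap, 0, lay between 0 and 2 when 1 library was left out. It was 1 without Elmo1-/- library 1, 1 without Elmo1+/- library 3 and 2 without Elmo1+/- library 4. With a library left out, the share of all genes free of overlap was not counted. Where 2 are set against 2, the count was 19 within libraries 1 and 2 (26.9% of all genes tested) and 3 within libraries 3 and 4 (29.9%). The 35 genes called between the library numbers were 30 to 40 when 1 library was left out, 30 at equal totals and 34 by edgeR. The share of all genes called was not counted in those fits. Within Elmo1+/- 19 were called and within Elmo1-/- 14, with fewer libraries a side.

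Over the 26 mitosis genes, 9 genotype differences were above 0 by edgeR and by DESeq2, against 15 by limma. Among the single genes followed through all settings, genotype differences that turned sign were small. For Ccnb1 the value was -0.016 by edgeR and -0.014 by DESeq2, and it lay between -0.17 and 0.15 when 1 library was left out. In the same way Mki67 lay between -0.30 and 0.17, Top2a between -0.051 and 0.22, Cdk1 between -0.055 and 0.15, Ccnd1 between -0.00410 and 0.29, and Cdkn1b between -0.11 and 0.011. Between the library numbers, Mcm4 lay between -0.085 and 0.16 and Cdc6 between -0.090 and 0.19 when 1 library was left out. Within Elmo1-/- alone these were -0.10 and -0.062, and Cdkn1b was 0.023. Within Elmo1+/- alone Pcna was 0.028. The cause was not tested. With 4 libraries a genotype, the 95% intervals of the genotype difference reached a median of 0.51 to either side over the mitosis genes and 0.29 over the replication genes.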

Other observations

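Among the 104 other cell cycle genes, 2 had genotypes that did not overlap. They are named here after their values were seen. Trp53, which encodes the p53 protein that acts upstream of Cdkn1a, had normalized counts of 2217, 2129, 2114 and 2324 in Elmo1+/- libraries 1 to 4 and 2429, 2836, 2452 and 2359 in Elmo1-/- libraries 1 to 4. All 4 Elmo1-/- values were above all 4 Elmo1+/- values, with a log2 difference of 0.20 ± 0.07 that was not called (limma, adjusted p = 0.999928). By a ratio of group averages, a measure not used here, the study lists Trp53 among genes regulated by Elmo1, higher in Elmo1-/-. Slbp, whose product binds histone mRNA in S phase, had 1059, 1049, 956 and 1054 in Elmo1+/- libraries 1 to 4 and 1163, 1242, 1097 and 1084 in Elmo1-/- libraries 1 to 4. Its log2 difference was 0.15 ± 0.07, also not called. Of all genes tested, 0.941% did not overlap between genotypes.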
